A study of Mus musculus with 6 samples.

Results

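The genes described here are 9 genes of MHC class II antigen presentation, chosen by name among the 25722 genes counted in each library. They are H2-Aa, H2-Ab1 and H2-Eb1 (chains of the class II molecules themselves), Cd74 (the invariant chain), Ciita (the coactivator of class II transcription), H2-DMa and H2-DMb1 (chains of the peptide-loading molecule H2-DM), and Cd80 and Cd86 (costimulatory ligands). All 9 had a row in the count tables, and 6 of them passed the filter on low counts. The cells were cultured from the bone marrow of wild-type C57BL/6 mice and labelled BM-MSCs, and the comparison asks how retinoic acid (RA) changes their RNA. There were 3 libraries from cells given the solvent DMSO (control) and 3 from cells given all-trans RA (ATRA). The labels give 1 μM for 48 h, and the methods of the study give another dose and time, so the exposure is uncertain. Both groups were grown in low-glucose DMEM with 20% fetal bovine serum, 5% O2 and 10 μM ROCK inhibitor. The labels name no cytokine for these cultures. The labels speak of 2 biological replicates although each group has 3 libraries, and do not tie single libraries to cultures. The study speaks of independent experiments for a group of panels as a whole, without saying so of the sequencing itself. The p-values below therefore measure only the spread between these libraries, part of which may be technical.

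MHC class II molecules are pairs of an alpha and a beta chain that carry peptides from endosomes to the cell surface, where CD4+ T cells read them. The invariant chain Cd74 holds the new pair and fills its groove until endosomal proteases trim it to a fragment called CLIP, which H2-DM then exchanges for a peptide. Transcription of the chains, of Cd74 and of H2-DM depends on Ciita, which does not bind DNA but is recruited by factors (RFX, CREB and NF-Y) seated on a shared stretch of the promoters, the X and Y boxes. Dendritic cells and B cells make class II constantly, whereas macrophages and stromal cells make little of it until interferon gamma (IFNγ) induces Ciita. Cd80 and Cd86 bind CD28 and CTLA-4 on T cells and are not part of the class II set of promoters.

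To show that shared stretch, 70 bases of the promoters of H2-Aa, H2-Eb1 and H2-DMb1 are given from RefSeq (GRCm38.p6), 5′ to 3′ on the strand of the gene, from 110 to 41 bases before the RefSeq start. For H2-DMb1 that start lies downstream of the GENCODE gene start given below, so its stretch falls inside the GENCODE gene. The stretches lie at chr17:34287864-34287933 on the minus strand, chr17:34305757-34305826 on the plus strand and chr17:34153081-34153150 on the plus strand, and capitals mark the letters CTNGNAACT (of the X box) and GATTGG (the Y box, an NF-Y motif).
H2-Aa: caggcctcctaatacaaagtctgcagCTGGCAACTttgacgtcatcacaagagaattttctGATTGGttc
H2-Eb1: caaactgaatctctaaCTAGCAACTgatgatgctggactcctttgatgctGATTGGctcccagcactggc
H2-DMb1: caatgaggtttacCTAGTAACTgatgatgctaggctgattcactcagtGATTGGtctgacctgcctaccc
The gap between the capitals was 26, 25 and 26 bases in H2-Aa, H2-Eb1 and H2-DMb1. These letters were chosen after the promoters had been read and were searched on both strands of windows from 250 bases before to 50 after each start. The motifs do not overlap. GATTGG stood in 16.1% of 32851 RefSeq promoters, CTNGNAACT in 4.10% and both in 0.694%. Promoter entries were matched for 5 of the 9 members, H2-Aa, H2-Eb1, H2-DMa, H2-DMb1 and Cd80. Neither motif was found in the window of Cd80. In H2-DMa, GATTGG stood in 1 of its windows and CTNGNAACT in none. H2-Ab1, Cd74, Ciita and Cd86 are named only.

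The libraries held 14737636 to 18511905 counts, so 3 counts corresponded to 0.159 to 0.210 CPM (each count divided by the library's total after TMM scaling, so that libraries are comparable). The treatment was visible: Cyp26b1, which breaks down RA, stood at 4.67 to 5.95 CPM in the controls and at 87.0 to 123 CPM after RA (log2 fold change 4.35, edgeR adjusted p = 0.00207). The libraries did not group by treatment. On the first principal component, computed without the genes described here or in the lists, DMSO 2, RA 1 and RA 2 (library set 1) stood apart from DMSO 1, DMSO 3 and RA 3 (set 2). The closest replicates of each group, DMSO 1 and 3 and RA 1 and 2, lie in the same set, and with 2 biological replicates stated it cannot be told whether such a pair is independent, so n = 3 counts libraries. No label gives the origin of these sets, so differences within each set are given beside the pooled ones for the members that passed the filter. The same holds for the tested genes named as the 2 highest of each pathway list. The members below the filter have only their counts by library. The 16 macrophage markers summed to 21026 to 23291 CPM in the controls and to 20588 to 21911 CPM after RA, and none was at 0. The 14 mesenchymal markers summed to 2365 to 4547 CPM and 1739 to 3535 CPM, and Thy1 and Nt5e, which usually define mesenchymal stromal cells, had at most 7 and 21 counts in a library. Some other mesenchymal markers were well detected. Over all libraries Eng (CD105) stood at 33.0 to 59.7 CPM, Pdgfrb at 60.2 to 140 CPM and Cxcl12 at 368 to 577 CPM. Pdgfra was lower, at 6.64 to 24.3 CPM. Lepr had 7 to 9 counts in the controls and 45 to 139 after RA. Of the 12 tested, 2 were higher in every RA library than in any control, Lepr and Cxcl12, and 2 were lower. Over all tested genes the groups did not overlap in 12.6%. The libraries thus held markers of both kinds of cell. In such bulk RNA, fewer cells of a type and less RNA per cell cannot be told apart.

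Of the 6 members that could be tested, 0 were called changed by RA with edgeR's quasi-likelihood test (adjusted p under 0.05 and at least a 1.5-fold change), where 0.0433% of all 13842 tested genes were called and 0.00722% were called lower after RA. Without adjustment 0 of the 6 had a p under 0.05, against 5.25% of all tested genes, and DESeq2 called 0 of them, against 0.983%. In 0 of the 9 members did all RA libraries lie on one side of all controls, against 12.6% of all tested genes (6.87% lower after RA). The log2 fold changes of the 6 ranged from -0.60 to 0.16 with a median of -0.30, and 4 were below 0. Over all tested genes the median was -0.02, and 52.7% were below 0. The plot of CPM by library shows the overlap of the groups for each member.

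**Figure D1:**
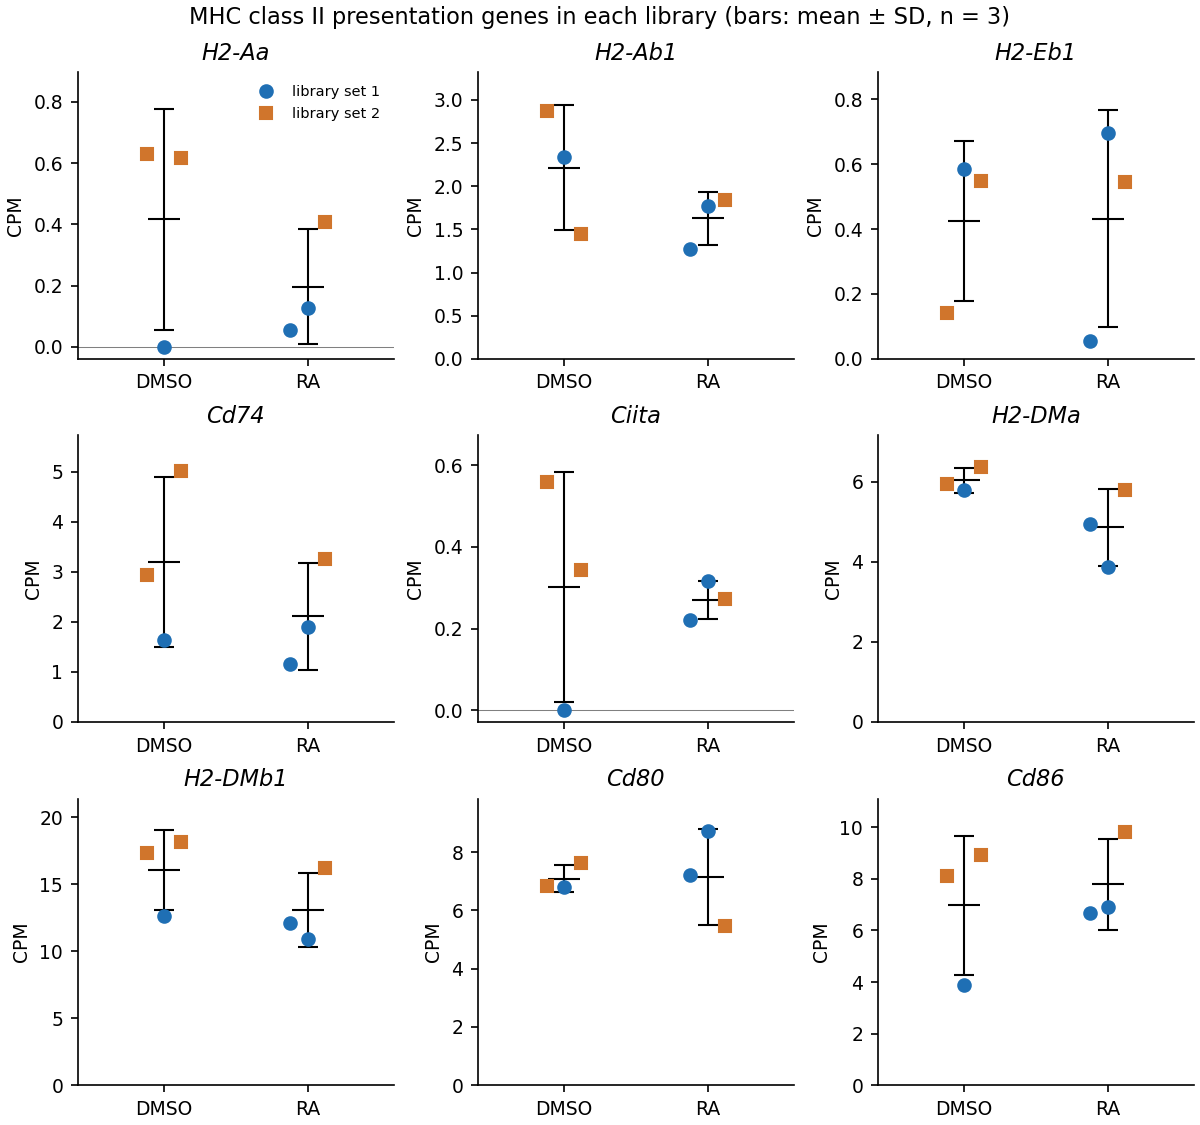
CPM (vertical axis, from 0, TMM scaled) of each of the 9 members in the 3 DMSO and the 3 RA libraries, with circles for library set 1 and squares for set 2 and black bars for mean ± SD (n = 3). The groups overlap in every panel, and in Cd74, H2-Aa, H2-DMb1 and Cd86 every square lies above every circle across both groups.

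The chains of the classical class II molecules were at a low level in every library. H2-Ab1 (ENSMUSG00000073421, chromosome 17 from 34257689 to 34269419, GRCm38 throughout) encodes the beta chain of I-A. It had 41, 44 and 21 counts in DMSO 1 to 3 and 23, 28 and 27 in RA 1 to 3, or 2.87, 2.34 and 1.44 CPM against 1.28, 1.77 and 1.84 CPM. DMSO 1 and DMSO 2 were the highest, and DMSO 3 lay below RA 2 and RA 3. The group means were 2.22 ± 0.720 and 1.63 ± 0.307 CPM (SD, n = 3), and the log2 fold change came to -0.45 (standard error, SE, 0.33, 95% interval -1.24 to 0.35, edgeR adjusted p = 0.803). Falls and rises both lay inside this interval.

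H2-Aa (ENSMUSG00000036594, chromosome 17 from 34282744 to 34287823) encodes the alpha chain that pairs with the product of H2-Ab1. Its counts were 9, 0 and 9 in DMSO 1 to 3 and 1, 2 and 6 in RA 1 to 3. The 3 libraries of set 2 held the highest counts in both groups, and DMSO 2, with 0 counts, allows up to 0.159 CPM. Summed, 18 control counts stood against 9 after RA, a ratio of 0.506 per library size with a 95% counting interval of 0.200 to 1.19, and the exact two-sided permutation test gave p = 0.4. With 3 libraries against 3 that test cannot go below 0.1, and the interval covers counting error only.

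H2-Eb1 (ENSMUSG00000060586, chromosome 17 from 34305867 to 34316674) encodes the beta chain of I-E, whose alpha chain C57BL/6 mice are known not to make. It had 2, 11 and 8 counts in the controls and 1, 11 and 8 after RA. The counts of the groups were nearly alike, and DMSO 1 and RA 1 were lowest in their groups. The labels do not say that libraries of the same number belong together. The ratio was 0.964 (95% counting interval 0.496 to 1.87, exact permutation p = 1.0). H2-Aa and H2-Eb1 were both below the filter, so no adjusted p was given.

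Cd74 (ENSMUSG00000024610, chromosome 18 from 60803848 to 60812652) had 42, 31 and 73 counts in the controls and 21, 30 and 48 after RA. That was 2.94, 1.65 and 5.01 CPM against 1.17, 1.90 and 3.27 CPM. The spread within each group was wide: DMSO 3 was the highest and RA 1 the lowest, while RA 3 lay above DMSO 1 and DMSO 2. The means were 3.20 ± 1.70 and 2.11 ± 1.07 CPM (SD, n = 3). The log2 fold change of -0.60 was the farthest from 0 among the 6 tested members and had the largest SE of them (SE 0.52, 95% interval -1.85 to 0.65, edgeR adjusted p = 0.805). Leaving out DMSO 3 moved it to -0.12 and leaving out RA 3 moved it to -1.06.

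Ciita (ENSMUSG00000022504, chromosome 16 from 10480059 to 10528418) was at the edge of detection. The controls had 8, 0 and 5 counts and the RA libraries 4, 5 and 4. In total 13 counts stood in each group, a ratio of 1.01 (95% counting interval 0.432 to 2.37, exact permutation p = 0.8). Falls and rises within this interval are compatible with these few counts. Its exons span 9535 bases, so per length it was the lowest of the members.

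The chains of H2-DM were the better measured members of the class II pathway. H2-DMa (ENSMUSG00000037649, chromosome 17 from 34119541 to 34139101), the alpha chain, had 85, 109 and 93 counts in the controls and 89, 61 and 85 after RA. In CPM the controls stood at 5.94, 5.79 and 6.39 and the RA libraries at 4.94, 3.86 and 5.79. The groups touched, since RA 3 and DMSO 2 were level, and RA 1 and RA 2 lay below every control. The means were 6.04 ± 0.310 and 4.86 ± 0.966 CPM (SD, n = 3), a log2 fold change of -0.31 (SE 0.21, 95% interval -0.82 to 0.20, edgeR adjusted p = 0.795). H2-DMa overlaps Brd2, with which it shares 9.23% of its 31-base words, and how reads on shared bases were counted is not given in the sources used here.

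H2-DMb1 (ENSMUSG00000079547, chromosome 17 from 34153072 to 34160230), a beta chain of H2-DM, had the most counts of the members. The controls held 248, 238 and 264 counts and the RA libraries 218, 172 and 238. In CPM this was 17.3, 12.6 and 18.1 against 12.1, 10.9 and 16.2. RA 3 lay above DMSO 2 and within the range of the controls. The means were 16.0 ± 2.97 and 13.1 ± 2.79 CPM (SD, n = 3), and the log2 fold change came to -0.29 (SE 0.22, 95% interval -0.83 to 0.24, edgeR adjusted p = 0.803). H2-DMb1 shares 31.4% of its 31-base words with its neighbouring copy H2-DMb2, so reads between these copies may be split. H2-DMb2 itself had 17, 7 and 11 counts in the controls and 3, 5 and 4 after RA, below the filter. Its groups did not overlap, while 6.87% of all tested genes were lower after RA without overlap. Within set 1, DMSO 2 stood at 0.372 CPM, close to RA 2 at 0.317 CPM. In the edgeR fit without the filter its log2 fold change was -1.58 (unadjusted p = 0.0244, adjusted p = 0.745).

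Per kilobase of exon, H2-DMb1 stood at 4.48 to 5.98 times the level of H2-DMa in every library. The means of this ratio were 5.43 ± 0.827 in the controls and 5.52 ± 0.427 after RA (SD, n = 3), a difference smaller than the spread. The ratio of Cd74 to H2-Ab1, by contrast, ran from 1.08 (DMSO 2) to 5.32 (DMSO 3), with 2.65 ± 2.32 in the controls and 1.92 ± 0.704 after RA. H2-Aa, H2-Ab1, H2-Eb1 and Cd74 together made up 6.57, 4.57 and 7.62 CPM in DMSO 1 to 3 and 2.55, 4.50 and 6.06 CPM in RA 1 to 3. RA 1 was the lowest, and RA 3 lay above DMSO 2.

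Cd80 and Cd86 had similar levels to each other, and their log2 fold changes were both small against their SE. Cd80 (ENSMUSG00000075122, chromosome 16 from 38455561 to 38496335) had 98, 128 and 111 counts in the controls and 130, 138 and 80 after RA. Its controls were close together at 6.85, 6.80 and 7.62 CPM, and the RA libraries spread around them at 7.22, 8.74 and 5.45 CPM. RA 2 was the highest and RA 3 the lowest of all. The means were 7.09 ± 0.460 and 7.13 ± 1.65 CPM (SD, n = 3), and the log2 fold change came to 0.01 (SE 0.22, 95% interval -0.52 to 0.54, edgeR adjusted p = 0.993).

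Cd86 (ENSMUSG00000022901, chromosome 16 from 36603869 to 36666081) had 116, 73 and 130 counts in the controls and 120, 109 and 144 after RA. In CPM the controls stood at 8.11, 3.88 and 8.93 and the RA libraries at 6.66, 6.90 and 9.81. DMSO 2 was far below the other libraries, and without it the log2 fold change turned from 0.16 to -0.12. With all libraries the means were 6.97 ± 2.71 and 7.79 ± 1.75 CPM (SD, n = 3; SE of the log2 fold change 0.35, 95% interval -0.67 to 0.99, edgeR adjusted p = 0.911). The ratio of Cd80 to Cd86 per kilobase ran from 0.549 (RA 3) to 1.73 (DMSO 2).

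Ordered by mean CPM per kilobase over the 6 libraries, H2-DMb1 (8.66 ± 1.81, SD) stood first. Cd86 (2.02 ± 0.571), Cd80 (1.92 ± 0.292), Cd74 (1.58 ± 0.835) and H2-DMa (1.58 ± 0.264) followed, and their ranges over the libraries overlapped from each to the next. H2-Ab1 (0.749 ± 0.230) came below them, and then H2-Eb1 (0.220 ± 0.135), H2-Aa (0.0807 ± 0.0746) and Ciita (0.0300 ± 0.0191), again with overlapping ranges. The ranges of H2-DMb1 and Cd86, of H2-DMa and H2-Ab1 and of H2-Ab1 and H2-Eb1 did not overlap. Cd74, level with H2-DMa in its mean, did overlap H2-Ab1, with 0.694 CPM per kilobase in RA 1 against up to 1.12 for H2-Ab1. Among all listed genes, the members lay between the 22.2 percentile (Ciita) and the 80.3 percentile (H2-DMb1) of CPM per kilobase.

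**Figure D2:**
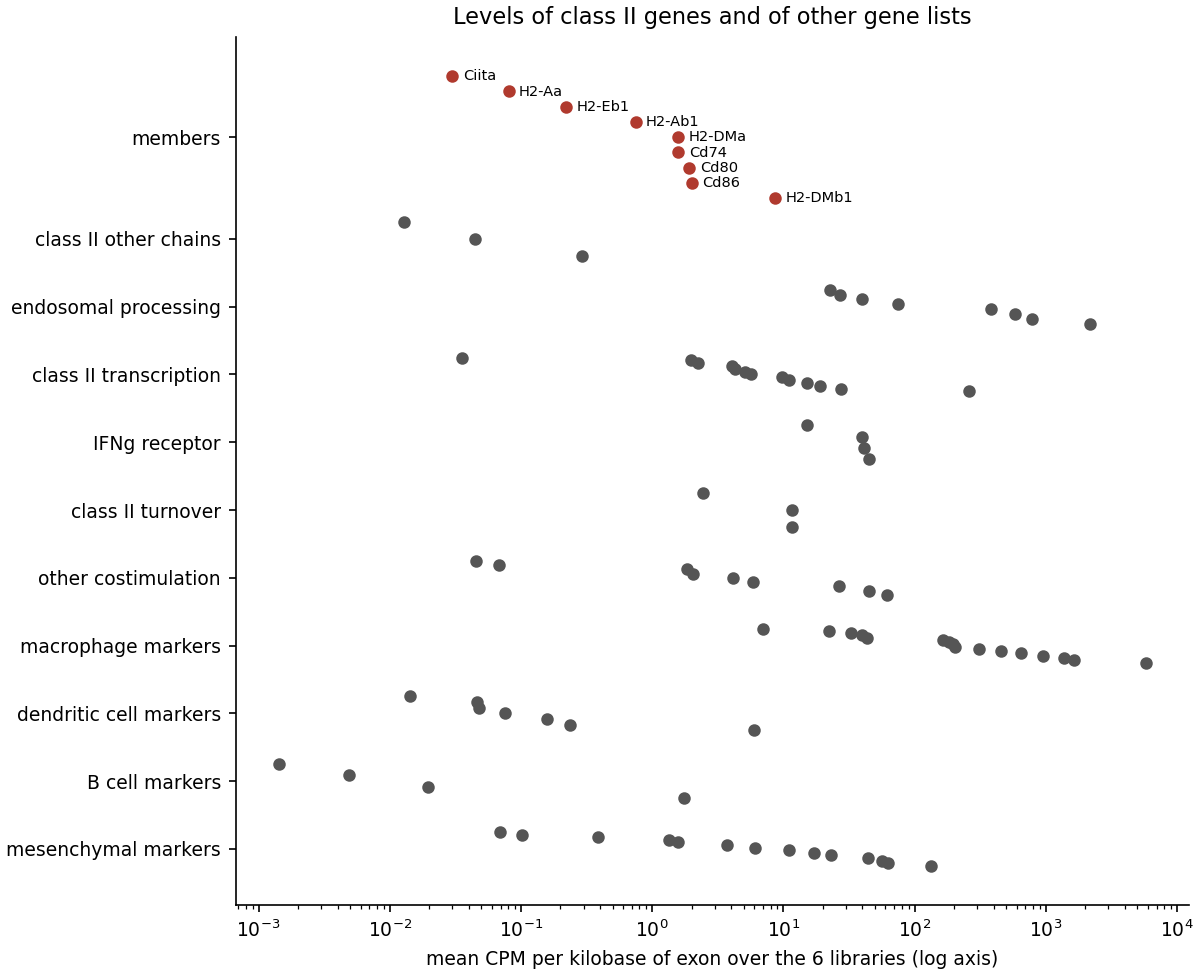
Mean CPM per kilobase of exon over the 6 libraries (horizontal log axis) of the 9 members (red, named) and of the genes of 10 lists (grey points, each a gene). The members run from 0.0300 (Ciita) to 8.66 (H2-DMb1), and the genes of endosomal processing and most macrophage markers lie to the right of them.

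The plot of levels sets the members beside genes of the same pathway and beside cell type markers. The median level of the members was 1.58 CPM per kilobase. The 8 genes of endosomal processing, proteases that trim the invariant chain and antigens together with the thiol reductase Ifi30, had a median of 228 CPM per kilobase, and the 16 macrophage markers one of 200 CPM per kilobase, from 7.03 upward. Cells that present by class II constantly were hardly seen. Of the B cell markers, 3 of the 4 listed had at most 3 counts in every library, and the list summed to 0.531 to 5.04 CPM in the controls and 0.333 to 5.52 CPM after RA. The dendritic cell markers summed to 9.93 to 15.9 CPM and 9.71 to 14.8 CPM, most of it from Batf3. Among these, Flt3 had 10, 1 and 7 counts in the controls and 0, 0 and 7 after RA, and Ccr7 had at most 2. The remaining B cell marker, Cd79b, had 71, 7 and 43 counts in the controls and 5, 18 and 79 after RA. Flt3 and Cd79b, like Cd74 and H2-Aa, were highest in DMSO 1, DMSO 3 and RA 3. They were picked after their values were seen, and the lists were mixed: of the 7 dendritic cell markers 3 were higher in every library of set 2, 1 (Xcr1) was lower and 3 overlapped, and of the 4 B cell markers 1 was higher, 1 (Cd79a, at most 1 count) was lower and 2 overlapped. The part of such cells in the members' values was not tested.

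Several members were ordered by library set across the treatments. Cd74, H2-Aa, H2-DMb1 and Cd86 were each higher in all 3 libraries of set 2 than in any of set 1, and in H2-DMa the sets only just parted, RA 3 and DMSO 2 being level at 5.79 CPM. H2-Ab1, H2-Eb1, Ciita and Cd80 had no such order. Of the 6 tested members, 3 were thus higher throughout set 2 (4 if the near tie of H2-DMa is counted) and 0 lower, where 24.4% of all tested genes were higher and 23.4% lower. The sets were drawn from the main axis of variation of these libraries, so many genes part this way. Of the 16 macrophage markers, 11 were higher in every library of set 2 than in any of set 1, 3 were lower and 2 overlapped, and the sums of the list overlapped (20588 to 21759 CPM in set 1 and 21026 to 23291 CPM in set 2). None of the 14 mesenchymal markers was higher in all of set 2, and 6 were lower. The part of these cell types in the differences between the sets was not tested.

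Within library set 1 the log2 difference of RA 1 and RA 2 from DMSO 2 was -0.59 for H2-Ab1, -0.13 for Cd74, -0.40 for H2-DMa and -0.14 for H2-DMb1. Within set 2 the difference of RA 3 from DMSO 1 and DMSO 3 was -0.14, -0.22, -0.09 and -0.13 for the same genes. All 4 were thus below 0 in both sets, but each set has a group with 1 library and gives no error. These 4 are the members that were below 0 in the pooled fit of the same libraries. The share of all tested genes below 0 in both sets was not counted. For Cd74 and H2-DMb1, both within-set values were smaller than the pooled ones of -0.60 and -0.29. The directions of Cd80 were opposite, at 0.22 in set 1 and -0.40 in set 2.

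The estimates of Cd74 and Cd86 moved most when the sets were taken into account, that of Cd74 from -0.60 to -0.21. The log2 difference of Cd86 was 0.79 within set 1 and 0.20 within set 2. With edgeR and the set as a covariate, its estimated log2 fold change was 0.49 (standard error 0.19, unadjusted p = 0.0321, adjusted p = 0.290). It was the only one of the 6 tested members with an unadjusted p under 0.05 in that fit, in which 15.1% of all tested genes had such a p and 1.54% were called. The covariate fit called 0 of the members. The sets were drawn from these same counts, so this fit takes out their main axis of variation. Its p-values, here and below, may therefore be too small.

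**Figure D3:**
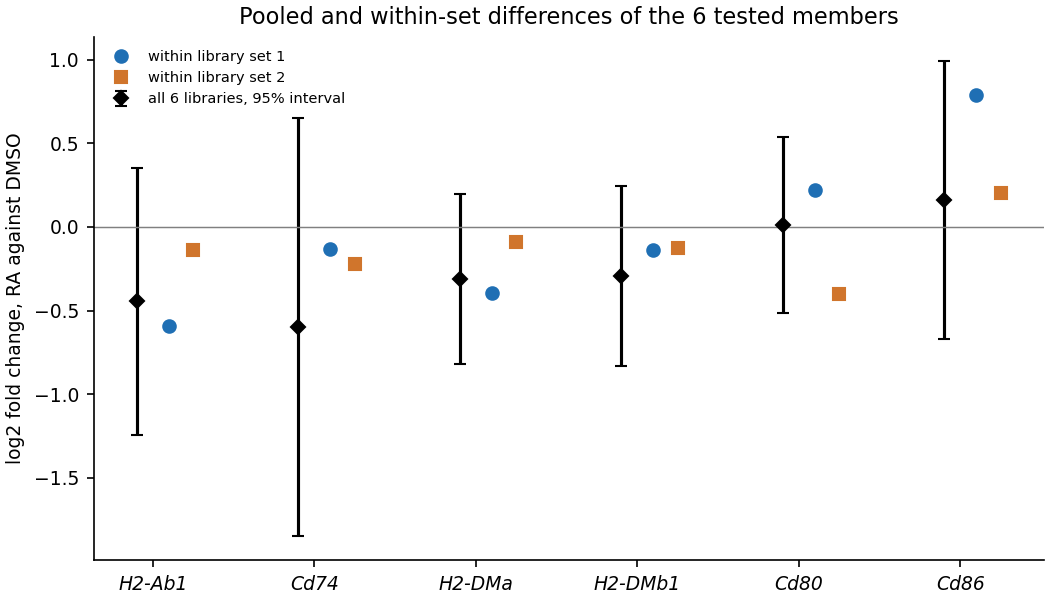
Log2 fold change of RA against DMSO (vertical axis) for the 6 tested members over all 6 libraries (diamonds, with edgeR's 95% interval) and as the difference of mean log2 CPM within library set 1 (circles) and set 2 (squares), which have no error. Every interval holds 0, and Cd80 lies on opposite sides of 0 in the sets, at 0.22 and -0.40.

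Other genes of the pathway were taken from 7 lists of 48 names, of which 44 matched a listed gene and 37 were tested. edgeR called 0 of the 37, none had an unadjusted p under 0.05, and DESeq2 called 0. The covariate fit also called 0, and 7 of the 37 had an unadjusted p under 0.05 in it, beside 15.1% of all tested genes. The groups did not overlap in 2 of the 37, Cd44 (lower after RA) and Jak1 (higher, 249 to 286 CPM against 290 to 320 CPM), beside 12.6% of all tested genes. The median log2 fold change of the 37 was -0.12, and 24 were below 0 and 13 above. In the covariate fit, which accounts for the library set, the balance turned to 16 below 0 and 21 above with a median of 0.05. The other class II chains, 3 of them listed (H2-DMb2, H2-Ob and H2-Oa), were all below the filter and are not in these counts. H2-Ob, the beta chain of H2-DO, which restrains H2-DM, had 1 to 7 counts in a library. H2-Eb2 and the alpha chain of I-E were not analysed here.

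The 8 genes of endosomal processing (proteases and the thiol reductase Ifi30) were abundant and split in direction, 5 below 0 and 3 above, with a median of -0.03, but with the set as a covariate 1 was below 0 and 7 above. Ctsd (cathepsin D) stood at 5816, 3056 and 6290 CPM in the controls and 3983, 3765 and 7637 CPM after RA (log2 fold change 0.02, SE 0.38, adjusted p = 0.991 with edgeR). Within sets 1 and 2 the difference of Ctsd was 0.34 and 0.34, and the covariate fit gave 0.34 (SE 0.08, unadjusted p = 0.0044, adjusted p = 0.119 with edgeR). Ctsb (cathepsin B) stood at 5487, 3144 and 6314 CPM against 3457, 3439 and 6629 CPM (log2 fold change -0.14, SE 0.37, adjusted p = 0.927 with edgeR), and within the sets its difference was above 0, at 0.13 and 0.17. Both were higher in the libraries of set 2 than in set 1, the order also seen in Cd74.

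Of the 12 tested factors of class II transcription, 7 were below 0 and 5 above, with a median of -0.07 (6 and 6 in the covariate fit). Spi1 (PU.1), a factor of myeloid and B cells, was the highest per length and stood at 870, 647 and 784 CPM in the controls and 588, 571 and 762 CPM after RA (log2 fold change -0.26, SE 0.18, adjusted p = 0.795 with edgeR; -0.16 and -0.12 within sets 1 and 2). The IFNγ receptor chains were well expressed, Ifngr1 at 94.1 to 139 CPM and Ifngr2 at 142 to 200 CPM over all libraries. Their log2 fold changes were -0.07 (edgeR adjusted p = 0.941) and -0.19 (edgeR adjusted p = 0.803). Within sets 1 and 2, Ifngr1 turned to 0.11 and 0.08, and Ifngr2 stood at -0.11 and -0.10.

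Marchf1 and Marchf8 encode ubiquitin ligases that take class II molecules and Cd86 off the surface. Marchf1 stood at 104, 35.8 and 114 CPM in the controls and 50.7, 70.8 and 120 CPM after RA, with DMSO 2 the lowest (log2 fold change -0.07, SE 0.48, adjusted p = 0.975 with edgeR). As for Cd86, its difference was above 0 within both sets, at 0.74 and 0.14, and in the covariate fit it was 0.44 (unadjusted p = 0.0444, adjusted p = 0.318). Marchf8 had a log2 fold change of -0.22 (SE 0.19, adjusted p = 0.803 with edgeR), with -0.26 and 0.03 within the sets. Of the other costimulatory and adhesion ligands, 4 of the 7 tested were below 0. Icam1, which binds LFA-1, stood at 275, 168 and 235 CPM against 145, 145 and 205 CPM (log2 fold change -0.45, SE 0.23, adjusted p = 0.795 with edgeR), with -0.21 and -0.31 within the sets and -0.26 in the covariate fit (unadjusted p = 0.0203, adjusted p = 0.249). Cd48 stood at 60.3 to 73.8 CPM against 67.9 to 83.5 CPM (log2 fold change 0.19, edgeR adjusted p = 0.799), with 0.30 and 0.21 within the sets and 0.26 in the covariate fit (unadjusted p = 0.0336, adjusted p = 0.293).

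Cd74 also serves at the surface as a receptor for the cytokine Mif, with Cd44 as its partner. Mif stood at 68.4, 126 and 60.3 CPM in the controls and 119, 116 and 55.5 CPM after RA (log2 fold change 0.19, SE 0.38, adjusted p = 0.908 with edgeR), and within sets 1 and 2 the direction turned, to -0.11 and -0.21. Mif was high in the 3 libraries of set 1, the reverse of the order of Cd74. Cd44 stood at 293, 288 and 281 CPM against 273, 281 and 237 CPM, and its groups only just did not overlap (log2 fold change -0.12, SE 0.12, adjusted p = 0.809 with edgeR; -0.06 and -0.28 within the sets).

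**Figure D4:**
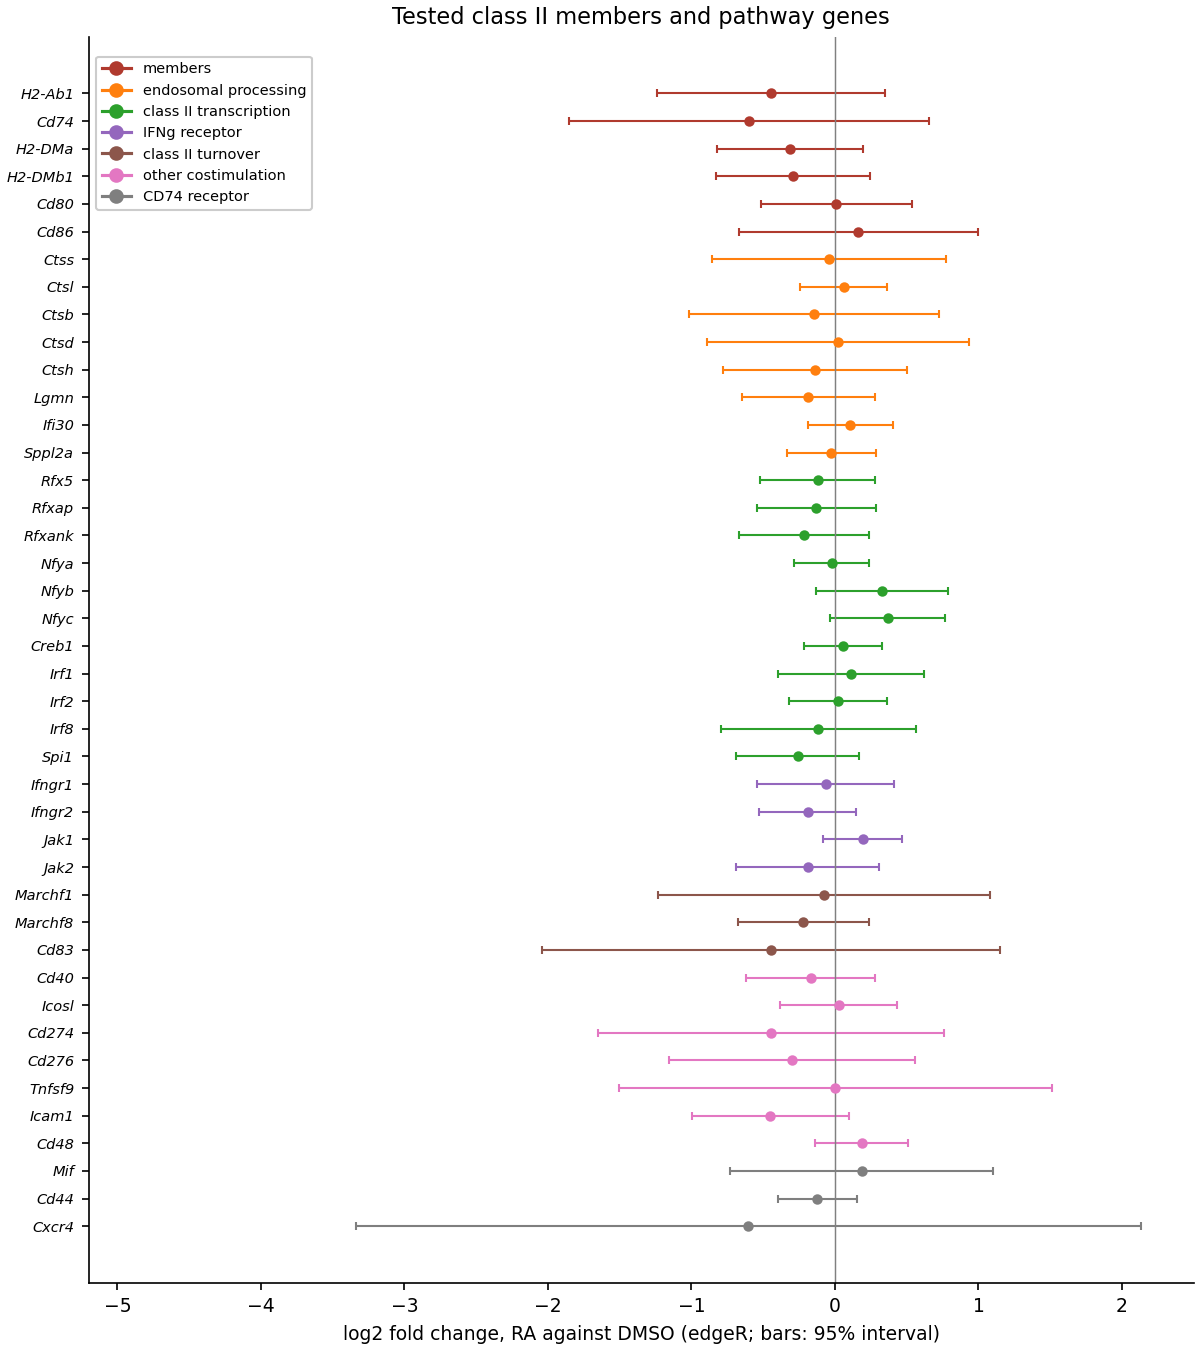
Log2 fold change of RA against DMSO (horizontal axis) with edgeR's 95% interval over all 6 libraries, for the 6 tested members (red) and the tested genes of the pathway lists that are reported here, coloured by list. Every interval holds 0, and the point estimates of the members run from -0.60 (Cd74) to 0.16 (Cd86).

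The genes whose log2 CPM over the 6 libraries was most like the mean standardised pattern of H2-Ab1 and Cd74 were Arhgap26 (Pearson r = 0.995), Ppif (0.989), Sap30bp (0.987), Capns1 (0.985) and Enpp2 (0.982). These are the highest of all tested genes over 6 points that share libraries, and are given as a description. H2-Ab1 and Cd74 themselves had r = 0.107 with each other and 0.744 each with their mean, so the pattern describes neither of them closely.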

How the data were processed

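RNA was sequenced in 6 libraries, 3 control and 3 RA-treated. The authors deposited raw counts of reads per gene, not normalized, 1 table per library. The submitters' processing notes name Bowtie2 2.2.3 and mm10. The counting program, annotation and strand setting are not given in the sources used here. Of 25722 genes, 25706 were found in GENCODE M21 (GRCm38), which gave coordinates and exon lengths, and 24 names turned into dates were restored by identifier. Members were rows with a member's name.

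Counts were analysed with edgeR 4.0.16 (R 4.3.3): TMM scaling, filterByExpr (minimum count 10, 13842 genes kept), the quasi-likelihood F test of RA against DMSO without covariates, and Benjamini-Hochberg adjustment over all tested genes. Genes were called at an adjusted p under 0.05 and at least a 1.5-fold change. Standard errors came from the log2 fold change and F. Within-set differences used log2 CPM with a prior count of 2. The library sets are the signs of principal component 1 over the 1000 tested genes of highest variance. Alternatives were DESeq2 1.42.0, leaving out each library, the replicate number as a block, library size scaling, no filter, no fold threshold and the library set as a covariate. The procedure was tested on simulated data. Counts of replicates differed by a chi-square per degree of freedom of 4.56 between DMSO 1 and 3 and 28.0 between RA 1 and 2, pairs within a library set, and of 76.9 to 83.1 for the other pairs of a group. All are more than the counting error of a library deposited again, so all were kept as separate libraries.

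The members and lists were chosen with earlier results of these data known. Named from each pathway list are the 2 genes highest in CPM per kilobase, with Cyp26b1 as the check of the treatment and the 5 genes most like the class II pattern. Named after their values were seen are Thy1, Nt5e, Eng, Pdgfrb, Cxcl12, Pdgfra, Lepr, Batf3, Flt3, Ccr7, Xcr1, Cd79a, Cd79b, Ifi30, Jak1, and H2-Oa, as the third listed of its list. A gene that this rule would name is not reported here.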

Additional observations from a re-analysis of the deposited data

How the results depend on the processing

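No member and no gene of the pathway lists was called in any of the 11 alternative fits. Over all genes the 6 calls became 20 without the filter on low counts, 136 with DESeq2, 213 with the library set as a covariate and 0 to 6 when a library was left out (0 without DMSO 1, and 6 without RA 3). Library size scaling and no fold threshold gave 6 each. The cause of these differences was not tested. Blocking on the replicate number called 4 genes and 0 members. Same-numbered libraries deviated from their group means with correlations of -0.51, 0.343 and 0.572. The libraries numbered 1 lie in different library sets, and those numbered 2 and those numbered 3 each share a set. These correlations therefore cannot show whether the numbers pair the libraries. The block changed no call of a member.

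H2-Ab1, Cd74, H2-DMa and H2-DMb1 kept a log2 fold change below 0 in every alternative run, from -0.67 to -0.22, -1.06 to -0.12, -0.45 to -0.17 and -0.48 to -0.13, and within both sets. These runs share libraries with the main fit, so the kept direction is not independent support for a fall. Of 221 values of 17 single genes, 34 changed direction and the others kept it, and 0 were called. A kept direction did not mean a kept size. Cd74 was at -0.60 in the main fit, at least a 1.5-fold change, and at -0.12 without DMSO 3. Leaving out a library gave ranges that crossed 0 for Cd80 (-0.16 to 0.17), Cd86 (-0.12 to 0.38), Ctsd (-0.38 to 0.21), Ctsb (-0.53 to 0.062), Ifngr1 (-0.23 to 0.051), Marchf1 (-0.48 to 0.20) and Mif (-0.010 to 0.61). The direction of Cd86 turned without DMSO 2 (-0.12) and without RA 3 (-0.036). The block gave -0.010 for Cd80 and 0.0047 for Marchf1. The covariate gave -0.075 (Cd80), 0.15 (Ctsb), 0.092 (Ifngr1), 0.44 (Marchf1) and -0.16 (Mif). Within set 1 the changed directions were 0.13 (Ctsb), 0.11 (Ifngr1), 0.74 (Marchf1) and -0.11 (Mif), and within set 2 they were -0.40 (Cd80), 0.17 (Ctsb), 0.076 (Ifngr1), 0.035 (Marchf8), 0.14 (Marchf1) and -0.21 (Mif). Cd44 moved to -0.28 within set 2. The cause was not tested.

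With 3 libraries a group, a wide spread and few counts for H2-Aa, H2-Eb1 and Ciita, the intervals given for each member were wide and included no change. Differences inside an interval are compatible with the values, and an interval is not a limit of detection. Intervals from counts cover counting error only, since PCR copies are not independent molecules.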
